A study of Mus musculus with 20 samples.

Results

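The difference between young and old female C57BL/6J mice in the blood response to 4 Gy of x-rays was measured as an interaction: the change after irradiation in old mice minus the change in young mice. All 20 of the series' 20 arrays enter it. They form 4 groups of 5: Young-UnIrradiated and Young-Irradiated mice aged 2 months, and Old-UnIrradiated and Old-Irradiated mice aged 24 months. Blood was taken by cardiac puncture 24 h after the exposure, and the unirradiated mice received 0 Gy. All mice were female and of the same inbred strain, and no transgene, deletion or other agent is named. The labels describe 5 independent experiments at each age, so that a replicate is a separate experiment, although the labels do not say whether a replicate number marks the same experiment in both dose groups. Levels are log2 fluorescence intensities from which each array's 75th percentile (P75 below) was subtracted, so that 1 unit is a 2-fold difference and 0 is the level of the P75. A response is the mean level at 4 Gy minus that at 0 Gy, and errors of responses are standard errors (SE) from limma, a linear model fitted across all genes.

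Ionising radiation breaks DNA and stabilises the transcription factor p53, which induces cell cycle inhibitors, repair genes and genes of cell death. Lymphocytes, and B cells above all, die soon after exposure, while granulocytes and platelets last longer in the circulation. DNA damage and dying cells can also switch on type I interferon signalling, which acts through the interferon-stimulated response element (ISRE) in promoters of antiviral genes such as the Ifit and Oas families. Monocytes are short-lived blood phagocytes that leave the marrow by means of the chemokine receptor Ccr2 and depend for their identity on the factor PU.1.

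Among the genes whose response differed between the ages were 17 of 49 tested interferon-stimulated genes and 11 of 35 tested monocyte and macrophage genes, against 1.74% of all genes tested, and promoters of 3 of the former and 2 of the latter are shown. Each stretch holds the 150 bases before the RefSeq transcription start in assembly GRCm38.p6, on the strand of the gene. In the first 3, from genes with a weaker response in old mice, capitals mark the ISRE core GAAANNGAA on either strand, with overlapping matches merged. In Fcgr4 and Cd300ld, both called monocyte genes that were chosen for display after their values were seen, capitals mark the PU.1 core GAGGAAGT on either strand.
Ifit1, chr19:34640739-34640888, plus strand: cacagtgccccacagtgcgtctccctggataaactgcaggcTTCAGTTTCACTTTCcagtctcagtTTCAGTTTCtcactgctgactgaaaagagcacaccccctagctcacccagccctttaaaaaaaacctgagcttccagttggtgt
Ifit3, chr19:34583379-34583528, plus strand: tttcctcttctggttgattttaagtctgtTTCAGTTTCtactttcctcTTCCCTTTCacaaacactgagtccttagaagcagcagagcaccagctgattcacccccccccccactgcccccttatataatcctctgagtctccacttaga
Oas1a, chr5:120907526-120907675, minus strand: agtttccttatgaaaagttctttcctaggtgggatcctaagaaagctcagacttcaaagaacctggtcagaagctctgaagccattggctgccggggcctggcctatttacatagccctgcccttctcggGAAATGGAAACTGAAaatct
Fcgr4, chr1:171018776-171018925, plus strand: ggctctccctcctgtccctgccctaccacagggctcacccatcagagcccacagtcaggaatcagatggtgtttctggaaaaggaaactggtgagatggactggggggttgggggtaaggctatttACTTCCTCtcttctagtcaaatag
Cd300ld, chr11:114989887-114990036, minus strand: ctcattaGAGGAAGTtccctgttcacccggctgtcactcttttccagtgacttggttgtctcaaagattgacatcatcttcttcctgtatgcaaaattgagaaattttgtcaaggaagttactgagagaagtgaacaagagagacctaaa

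Ifit1 held 3 matches to the ISRE core in this stretch, and Ifit3 and Oas1a held 2 each. Of all 32851 RefSeq promoter windows of 300 bases, 8.56% held the ISRE core and 3.20% the PU.1 core. Among tested genes with a window the shares were 9.03% and 3.86%. All 11 called monocyte genes had a window, and 5 of them held the PU.1 core, against 2 of 19 monocyte genes that were not called and 1 of 15 opposite genes. The ISRE core was held by 4 of these 11, 4 of these 19 and 2 of these 15 genes. It also lies in the Fcgr4 stretch, where it is not marked. Of the 17 called interferon-stimulated genes 9 had a window and 6 of these held the ISRE core, against 16 of 26 that were not called. With windows for so few members a comparison of shares is void for either list. A match describes the letters and is not evidence of binding.

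The depth of the arrays differed. Old-Irradiated replicate 5 was dim, with a P75 of 19.7 intensity units and 33.3% of its spots above background by the scanner's flag; the P75 of the other 19 arrays ran from 97.5 to 241.7 and their share from 48.2% to 57.9%. The arrays lay on 5 slides of 4. Slide 2 held 1 Young-UnIrradiated and 3 Young-Irradiated arrays, slide 4 held 3 Old-UnIrradiated and 1 Old-Irradiated array, slide 3 held 2 arrays each of Young-Irradiated and Old-UnIrradiated mice, and slides 1 and 5 held 1 group each. With slide as a term in the model, the young response therefore rests on slide 2 and the old response on slide 4. Liver transcripts were present on some arrays: 29 hepatocyte genes averaged over a level of 2 on 5 arrays, 3 of them Young-UnIrradiated (4.82, 6.20 and 7.42), 1 Young-Irradiated (7.17) and 1 Old-Irradiated (3.28), while the Old-UnIrradiated arrays lay between -4.57 and -3.79. Leaving out these 5 arrays kept only replicates 3 and 5 of the Young-UnIrradiated group, at -1.98 and 0.67. The median interaction of the hepatocyte genes was then 1.33 against 5.65 with all arrays, so that the imbalance was reduced and not removed. The mean of 5 heart muscle genes was 2.92 on Old-Irradiated replicate 3 and -1.20 or lower on every other array. Of 18 body cavity macrophage genes 7 rose in young and 10 in old mice. Of 14 mesothelial genes 9 rose and 1 fell in young mice, and 8 rose in old mice. Over all genes 15.4% rose in young and 3.98% in old mice. The 5 arrays were chosen by hepatocyte genes alone, and the part of heart muscle and body cavity cells was not tested. Values with slide as a term or without these 5 arrays stand beside many of the results. Of the 39 called genes described below for which each alternative was run, all 39 kept their sign under both. With slide as a term none of the 39 was called (adjusted p from 0.644 to 1.0) and 14 interactions were smaller by more than 1.5 times. Without the 5 arrays only Ifitm6, Oas1a and Fcgr1 of the 39 were called, and the adjusted p of the others ran from 0.0972 to 0.289.

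The first question was how many genes responded differently at the 2 ages. Of 16550 genes tested, 288 (1.74%) passed the interaction at an adjusted p under 0.05: 233 (1.41%) had a lower response in old mice and 55 (0.332%) a higher one. The difference was 2-fold or more for 280 of the 288, with a median SE of the interaction of 0.44 over all genes. In young mice 2541 genes rose (15.4%) and 813 fell (4.91%), and in old mice 659 rose (3.98%) and 376 fell (2.27%). Of the 233 genes with a lower response in old mice, all 233 had a higher mean in Old-UnIrradiated than in Young-UnIrradiated mice, by a median of 1.15, and 214 had a lower mean in Old-Irradiated than in Young-Irradiated mice, by a median of 0.46 (-0.46 as old minus young). Over all 16550 genes the median age difference was 0.10 without and 0.02 with irradiation. These age differences are the other reading of the same interaction and were not tested apart from it.

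The split between higher and lower depended on the scaling: with the P75 taken over probes above background on all arrays, 165 genes were called, 77 higher and 88 lower. With slide as a term 3 genes were called, all 3 higher and none of them among the 288; 288 of the 288 kept their sign and 0 were called. Without the 5 arrays with liver transcripts, 6 genes were called, and without these and the dim array 41 were, a choice made after seeing the data. Normexp background correction left 3 calls and the authors' values 11, and leaving out each array in turn gave 71 to 823.

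Among the 288 genes with a called interaction, classes were formed from the calls of the 2 responses. The response was called in young mice and not in old in 205 genes (lost, 1.24%), called in old and not in young in 46 (gained, 0.278%), called in opposite directions in 17 (opposite, 0.103%), and called in the same direction but smaller in old in 12 (weaker, 0.0725%). In 8 genes the interaction was called and neither response was. A further 2503 genes were called in young mice only and 343 in old mice only without a called interaction, and these are in none of the classes. No gene was called stronger in old mice by limma. An equal response, defined as both called in the same direction with the 95% confidence interval of the interaction within 1 log2 unit of 0, was found for 103 genes (0.622%), and for 514 more both responses were called in the same direction with an interval that reached past this margin.

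**Figure D1:**
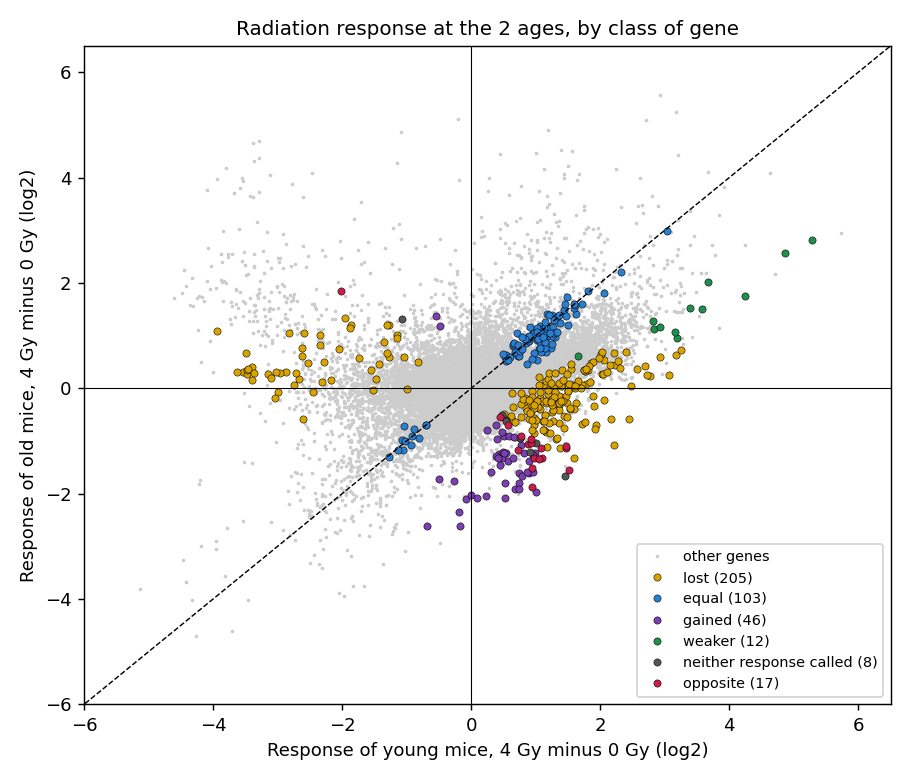
Response to 4 Gy (log2, 4 Gy minus 0 Gy) in old mice (y axis) against that in young mice (x axis), 1 point per gene for 16550 genes, coloured by class with the number of genes in each; the dashed line marks equal responses. The 17 opposite genes lie below the horizontal axis on the right, except 1 at the upper left, and the 12 weaker genes lie right of the dashed line at the top.

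Genes of opposite response rose in irradiated young mice and fell in irradiated old mice in 16 of 17 cases, and several are typical of monocytes and other myeloid cells. Ccr2, the receptor that lets inflammatory monocytes leave the marrow (probe at chr9:124022948-124023007, mm9), rose 1.92-fold in young mice and fell 3.66-fold in old mice. Ms4a6c, a membrane protein gene of monocytes (chr19:11545580-11545639), rose 2.84-fold and fell 2.95-fold. Ifitm6, a myeloid member of the interferon-induced transmembrane family, rose 2.78-fold and fell 2.19-fold.

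Ccr2 had levels of 0.62, 0.82, 0.81, 0.61 and 1.22 in Young-UnIrradiated mice and 1.91, 1.90, 2.00, 1.33 and 1.66 in Young-Irradiated mice. In old mice it stood at 2.38, 2.29, 2.61, 2.08 and 1.93 without and at 1.35, 0.28, 0.83, 0.04 and -0.56 with irradiation. The dose groups did not overlap at either age, and the unirradiated old mice had the highest mean. The responses were 0.94 ± 0.27 in young (adjusted p = 0.0186) and -1.87 ± 0.27 in old mice (adjusted p = 0.000666), and the interaction was -2.82 ± 0.39 (adjusted p = 0.00131). It was -1.57 with slide as a term (adjusted p = 1.0) and -2.64 without the arrays with liver transcripts (adjusted p = 0.109), and lay between -3.06 and -2.58 when each array was left out in turn.

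Ms4a6c stood at 0.26, 0.23, 0.38, -0.52 and 0.60 in Young-UnIrradiated and at 1.91, 1.43, 1.84, 1.30 and 2.00 in Young-Irradiated mice. Its levels were 2.56, 2.51, 2.84, 2.00 and 2.12 in Old-UnIrradiated and 0.73, 1.97, 1.27, 0.21 and 0.05 in Old-Irradiated mice. Again neither age showed an overlap between doses. The interaction was -3.07 ± 0.44 (adjusted p = 0.00167), the lowest of the 17, and -2.71 with slide as a term. Without the arrays with liver transcripts it was -2.71 too and was not called (adjusted p = 0.109).

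Ifitm6 did not overlap between doses at either age. It lay between 2.59 and 2.96 in Young-UnIrradiated and between 3.96 and 4.39 in Young-Irradiated mice. In old mice it lay between 4.17 and 5.15 without and between 2.42 and 4.15 with irradiation. Its interaction of -2.61 was also called without the arrays with liver transcripts (-2.36, adjusted p = 0.0237). Sap30, a subunit of the Sin3 histone deacetylase complex, responded by 1.46 in young and -1.10 in old mice, and Skint3 by 0.94 and -1.51; their interactions were -1.66 and -2.01 with slide as a term. Clec4a3, a C-type lectin receptor of myeloid cells, responded by 1.09 and -1.32. Lilra5, an activating leukocyte receptor, was called in the same directions, but its probe was well above background on 1, 4, 5 and 1 arrays of the Young-UnIrradiated, Young-Irradiated, Old-UnIrradiated and Old-Irradiated groups, so that no size is read from it. Acer3, an alkaline ceramidase, had an interaction of -2.30 on 1 probe and 0.13 on its other probe, so that the probes disagreed. Mpeg1, which encodes the pore-forming perforin-2 of macrophages, had an interaction of -1.89, and Lgals3, which encodes galectin-3, one of -1.98.

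**Figure D2:**
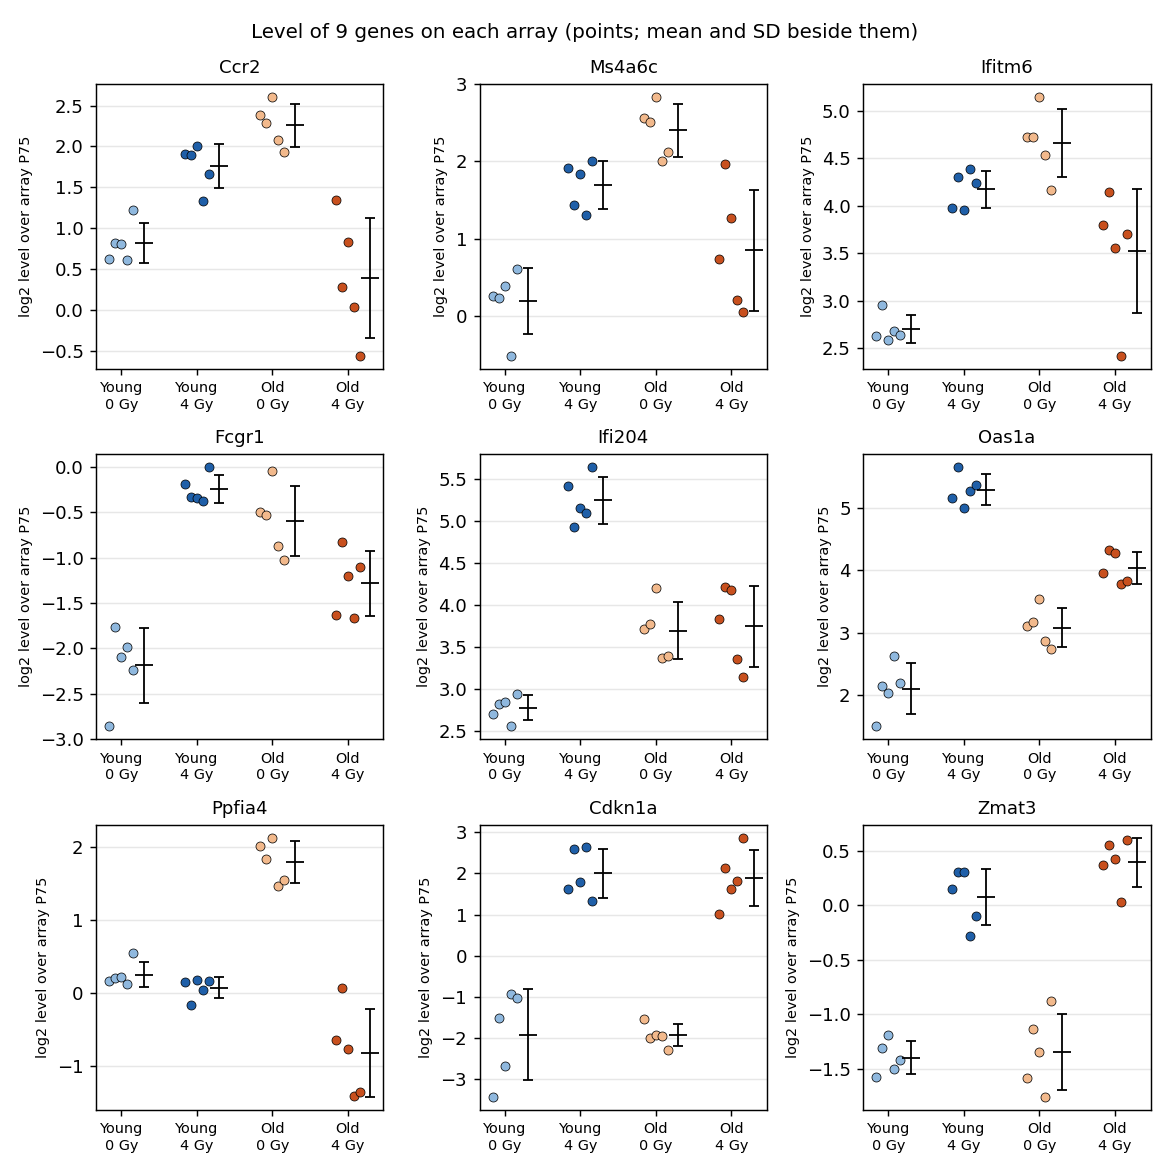
Level (log2 intensity over the P75 of the array, y axis) of 9 genes on each of the 20 arrays by group (points; 5 per group), with the mean and SD beside them. Ccr2, Ms4a6c and Ifitm6 are higher at 4 Gy in young and lower in old mice, Ifi204 rises in young mice alone by the test, Oas1a rises at both ages, and Cdkn1a and Zmat3 rise at both with intervals of the difference that include 0.

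The monocyte and macrophage list holds Ccr2, Ms4a6c and Mpeg1 from above, and its members were chosen with earlier results of these data known. Its counts are therefore a description and no separate support. Of 35 tested members 14 rose and 2 fell in young mice, against 15.4% and 4.91% of all genes. In old mice none rose and 10 fell, against 3.98% and 2.27%. In the interaction 11 were lower and none higher, against 1.41% and 0.332% of all genes, with a median of -1.38 against -0.03 over all genes. The mean level of the list was 1.88 to 2.53 in Young-UnIrradiated, 2.70 to 3.07 in Young-Irradiated, 3.02 to 3.45 in Old-UnIrradiated and 2.31 to 3.28 in Old-Irradiated mice. The median interaction was -1.09 with slide as a term and -1.16 without the arrays with liver transcripts. In whole blood fewer cells of a type and less RNA per cell cannot be told apart.

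Fcgr1, the high-affinity receptor for immunoglobulin G on monocytes, lost its call in 2 of 38 alternative settings. It lay between -2.86 and -1.76 in Young-UnIrradiated and between -0.37 and 0.00 in Young-Irradiated mice, and rose 3.84-fold. It lay between -1.03 and -0.04 in Old-UnIrradiated and between -1.66 and -0.83 in Old-Irradiated mice, where the groups overlapped and the response of -0.69 ± 0.23 did not pass (adjusted p = 0.0749). The interaction of -2.63 ± 0.32 (adjusted p = 0.000671) was called without the arrays with liver transcripts as well (adjusted p = 0.0237). Fcgr4, another receptor for immunoglobulin G, had an interaction of -1.52 and Cd300ld one of -1.38. Csf1r, the receptor for the growth factor that maintains monocytes, was at -1.35 and missed the threshold (adjusted p = 0.0534). The interactions of its 3 probes ran from -1.71 to -0.49. Csf1r passed with the replicate number as a block (adjusted p = 0.0402). This block is only an alternative here and below, since the numbers are not known to pair the samples. Cx3cr1, the fractalkine receptor of patrolling monocytes, fell in old mice by 1.24 and was at -0.05 in young mice, with an interaction of -1.18 that did not pass (adjusted p = 0.204).

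Called genes lay side by side in several families. Taking called genes whose probes lay within 200 kb of the next, 5 groups of 3 or more were found, a description made after the values were seen. The groups were picked for holding called genes, so that their shares exceed the 1.74% of all genes by selection. At chr19:11467221-11852097 (mm9) 5 of 12 tested genes were called, all lower, among them Ms4a4a (-3.12), Ms4a6c and Ms4a6d (-3.03) of the membrane-spanning 4A family. At chr15:74810484-75102522 5 of 8 were called, all lower, with Ly6i (-2.40), Ly6c1 (-1.49) and Ly6f (-2.70), lymphocyte antigen 6 genes whose close sequences can share signal on an array, while Ly6g, the neutrophil antigen between them, was not called (-0.45). At chr6:122884578-122974123 all 3 tested genes were called lower, namely Clec4a1 (-1.98), Clec4a3 and Clec4a4 (-2.92), the last with no Young-UnIrradiated array above background. At chr19:34650244-34723855 4 of 6 were called, all of the Ifit family. In the remaining group, at chr9:108755235-108960513, 3 of 8 were called, 2 of them lower.

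Of 49 tested interferon-stimulated genes 42 rose in young and 12 in old mice, against 15.4% and 3.98% of all genes. None fell at either age. In the interaction 17 were lower and none higher, against 1.41% and 0.332% of all genes, the median was -1.34, and 46 of 49 estimates were below 0. The mean level was 1.04 to 1.26 in Young-UnIrradiated and 2.84 to 3.36 in Young-Irradiated mice, and 1.52 to 1.89 in Old-UnIrradiated and 1.98 to 2.67 in Old-Irradiated mice. The unirradiated old mice were above all unirradiated young mice, and the irradiated old mice below all irradiated young mice. The median was -1.23 with slide as a term and -1.10 without the arrays with liver transcripts, and without the dim array 22 members were called.

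Of the 17 called members 5 were weaker and 12 lost. Ifit1, which binds viral RNA that lacks a host cap (promoter above), rose 11.9-fold in young and 2.85-fold in old mice. It stood at -0.66, -0.76, -0.35, -0.46 and -0.47 in Young-UnIrradiated and at 3.30, 2.40, 2.96, 2.82 and 3.70 in Young-Irradiated mice. In old mice it stood at 0.52, 0.40, 0.67, 0.57 and -0.07 without and at 2.22, 1.09, 1.99, 1.73 and 2.61 with irradiation. Every irradiated mouse was above every unirradiated mouse of its age, and the interaction was -2.06 ± 0.37 (adjusted p = 0.0107). It was -1.53 with slide as a term and -1.94 without the arrays with liver transcripts (adjusted p = 0.191).

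Oas1a, an enzyme that makes the second messenger of RNase L (promoter above; probe at chr5:121346735-121346794, mm9), rose 9.08-fold in young and 1.94-fold in old mice. Its levels were 1.5, 2.15, 2.04, 2.63 and 2.19 in Young-UnIrradiated and 5.15, 5.65, 4.99, 5.26 and 5.37 in Young-Irradiated mice, and 3.10, 3.17, 3.54, 2.86 and 2.74 in Old-UnIrradiated and 3.96, 4.33, 4.28, 3.78 and 3.83 in Old-Irradiated mice. The dose groups were apart at both ages and the interaction was -2.23 ± 0.30 (adjusted p = 0.00114). It was -2.16 with slide as a term (adjusted p = 1.0) and remained called without the arrays with liver transcripts (adjusted p = 0.0445).

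Ifit3 (promoter above) rose by 4.87 in young and 2.57 in old mice and its near-identical copy Ifit3b by 5.29 and 2.82; the probes of these 2 genes may share signal. Oasl2, an antiviral relative of the Oas enzymes, had an interaction of -2.08, Oas1f one of -1.76 and Rtp4, a chaperone of receptors induced by interferon, one of -1.88.

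Among interferon-stimulated genes whose response was lost, Ifi204, a DNA sensor of the Ifi200 family (probe at chr1:175677647-175677706, mm9), rose 5.54-fold in young mice and responded by 0.05 ± 0.22 in old mice. Its levels were 2.70, 2.82, 2.84, 2.55 and 2.94 in Young-UnIrradiated and 5.41, 4.92, 5.15, 5.09 and 5.64 in Young-Irradiated mice, against 3.71, 3.77, 4.20, 3.37 and 3.39 in Old-UnIrradiated and 3.83, 4.21, 4.17, 3.35 and 3.14 in Old-Irradiated mice. Doses were apart in young mice and overlapped in old mice, and the interaction was -2.42 ± 0.32 (adjusted p = 0.0011). It was -2.04 with slide as a term and -2.24 without the arrays with liver transcripts (adjusted p = 0.0972). Mx1, an antiviral GTPase, responded by 3.26 in young and 0.72 in old mice, with an interaction of -2.53, and Ifit2 by 2.93 and 0.60, with an interaction of -2.33. With slide as a term these were -2.10 and -1.18.

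Other interferon-stimulated genes, of which 2 are given here, did not pass. Isg15, a ubiquitin-like modifier, had an interaction of -0.83 (adjusted p = 0.723) and Irf7, a transcription factor that amplifies interferon, one of -1.43 (adjusted p = 0.319). On the dim array these stood at 10.33 and 5.25, above the other Old-Irradiated arrays at 4.78 to 6.52 and 1.87 to 2.57, and without it Irf7 had an interaction of -2.05 that passed (adjusted p = 0.0211) and Isg15 one of -1.77 that did not (adjusted p = 0.106).

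The 205 lost genes were mostly genes that rose in young mice (154), and 51 fell. In 111 of the 205 the 95% interval of the old response lay within 1 log2 unit of 0, and in 141 the old estimate had the opposite sign. For the others the old response was not bounded this way, so that the word lost describes the calls only.

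Genes of inflammation and innate sensing stood among them. Of 31 tested genes of inflammatory cytokine and NF-kB signalling 6 were lower in the interaction, against 1.41% of all genes, and none higher. In young mice 18 rose and 2 fell, against 15.4% and 4.91% of all genes. In old mice 3 rose and 3 fell, against 3.98% and 2.27%. The median interaction was -0.76, and -0.35 with slide as a term. Tlr2, a receptor for bacterial lipoproteins, responded by 1.26 in young and -0.40 in old mice, and Cebpb, a transcription factor of emergency myelopoiesis, by 0.97 and -0.69. Il1b, the cytokine interleukin-1 beta, rose by 2.38 in young mice and responded by 0.46 in old mice, with an interaction of -1.93 that did not pass (adjusted p = 0.0574) and passed with the replicate block (adjusted p = 0.0256).

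Of 37 tested genes of phagocytosis and dead cell clearance 4 were lower, against 1.41% of all genes, with a median interaction of -0.30. This median was 0.02 without the dim array and -0.69 without the arrays with liver transcripts. Clec7a, the receptor for fungal beta-glucan, responded by 2.06 and -0.22, and Tyrobp, the adaptor DAP12 that signals for many myeloid receptors, by 1.39 and -0.24. With slide as a term their interactions were -0.74 and -0.53, and without it -2.28 and -1.63. Fpr2, a formyl peptide receptor of neutrophils and monocytes, had an interaction of -2.28 and of -0.86 with slide as a term. Anxa2, a membrane-binding annexin counted in the list of effector T cells, had -1.50 and -0.52, and Gsr, which regenerates reduced glutathione, -1.72 and -0.74. Gata2, a factor of progenitors and basophils, had -1.36 and -0.69. All 6 kept their sign and were smaller by more than 1.5 times with slide as a term.

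The 8 lost genes named for the widest gaps, Dynap, Slc39a12, Arnt2, Adamts9, Olfr206, Tmie, Kcna5 and Trnp1, were kept only through unirradiated young mice. In every other group fewer than 4 of 5 arrays had the probe well above background. A gene kept in this way is high in that group by selection, so that nothing is read from its fall or its interaction. In Arnt2 and Olfr206 the probe was well above background in unirradiated young mice only. Arnt2, a dimerisation partner of the aryl hydrocarbon receptor family, stood at -2.79, -1.47, -3.62, -2.54 and -3.00 in Young-UnIrradiated mice. In the other 3 groups its probe was well above background on no array, so that no fold is given for either age. Olfr206, an olfactory receptor gene, behaved alike. Dynap, which encodes a membrane protein bound to dynactin, was above background on no Young-Irradiated, 1 Old-UnIrradiated and 2 Old-Irradiated arrays. Of the 5 Young-UnIrradiated arrays, 4 shared slide 1 and 3 carried liver transcripts; their part in these levels was not tested. Without the arrays with liver transcripts neither Arnt2 nor Dynap was called (adjusted p = 0.228 and 0.162).

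In the 12 genes of weaker response both ages rose in every case. Acod1, the enzyme that makes the antibacterial metabolite itaconate in activated macrophages, rose 18.9-fold in young and 3.37-fold in old mice. It stood at -3.86, -4.76, -3.79, -3.78 and -3.85 in Young-UnIrradiated and at 0.40, -0.46, -0.28, 0.54 and 0.99 in Young-Irradiated mice. Old mice stood at -0.98, -1.27, -1.67, -0.55 and -1.41 without and at 0.52, 0.67, 0.53, 0.71 and 0.45 with irradiation. The irradiated old mice lay within the range of the irradiated young mice, and the unirradiated old mice were all above the unirradiated young mice. The interaction was -2.49 ± 0.38 (adjusted p = 0.00307), -2.01 with slide as a term, and -2.26 without the arrays with liver transcripts (adjusted p = 0.137).

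Phlda3, a p53 target that inhibits the kinase Akt, had the same form. It rose 12.8-fold in young mice, from 0.31, -0.13, 0.15, 0.36 and 0.64 to 4.02, 4.06, 3.98, 3.60 and 4.05. In old mice it rose 4.06-fold, from 2.67, 1.73, 1.79, 1.96 and 1.29 to 3.85, 4.10, 3.73, 3.99 and 3.86. The levels after irradiation overlapped between the ages while those before did not, and the interaction was -1.66 ± 0.30 (adjusted p = 0.0107). It was -1.21 with slide as a term and -1.63 without the arrays with liver transcripts (adjusted p = 0.174). Hdc, the enzyme that makes histamine, rose by 2.84 and 1.13, and its interaction of -1.71 shrank to -0.53 with slide as a term.

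**Figure D3:**
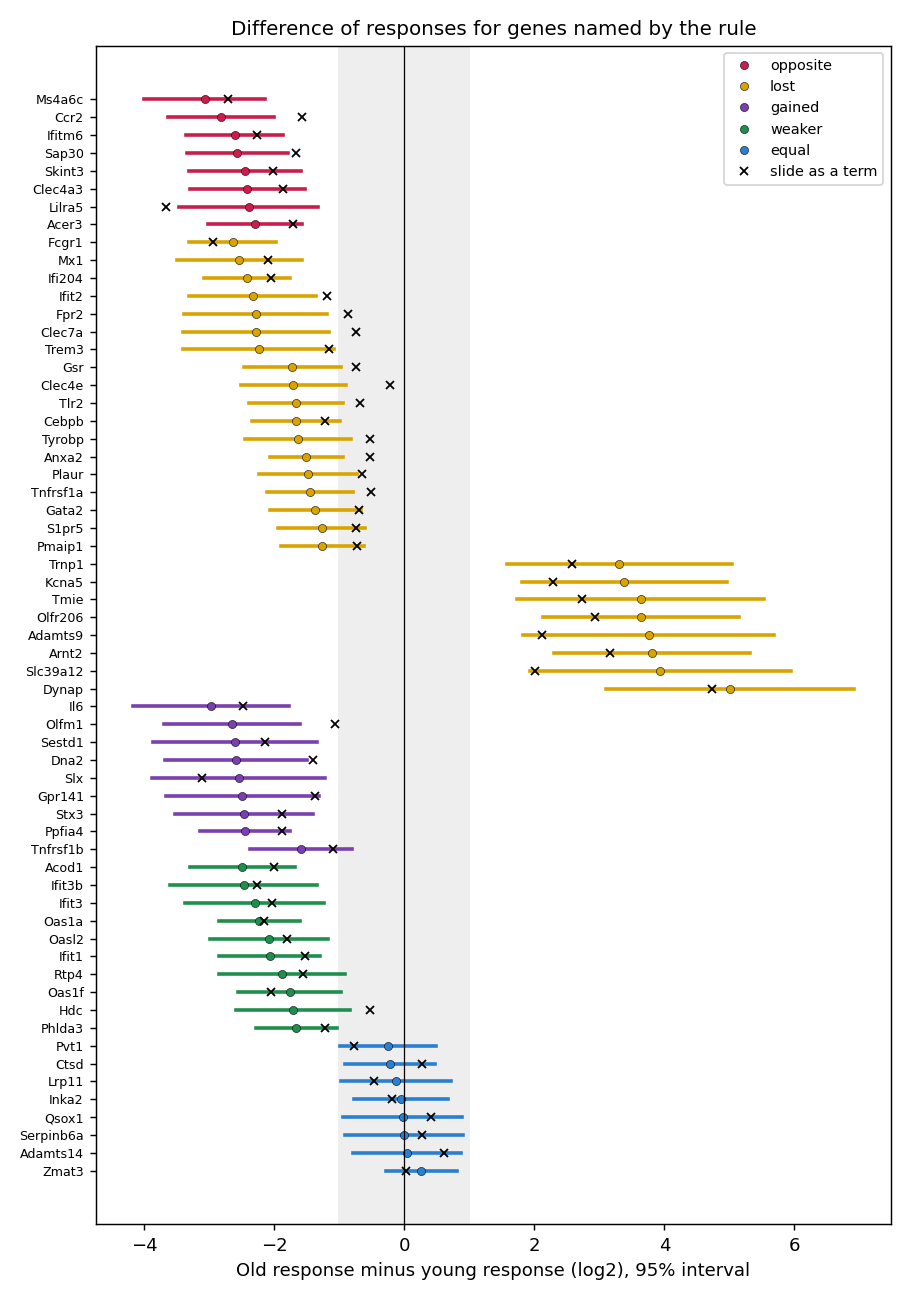
Old response minus young response (log2, x axis) with its 95% confidence interval for the 61 genes of 5 classes named by the rule, and the same with slide as a term (crosses); the grey band spans 1 log2 unit on either side of 0. The 53 genes outside the equal class keep their sign with slide as a term, and the intervals of the 8 equal genes lie within the band.

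Gained responses were falls in old mice in 44 of 46 genes. Ppfia4, a liprin of synaptic and secretory scaffolds (probe at chr1:136193361-136193420, mm9), fell 6.14-fold in old mice, from 2.02, 1.83, 2.13, 1.47 and 1.55 to -0.64, 0.07, -0.76, -1.41 and -1.35. In young mice it stood at 0.16, 0.20, 0.22, 0.13 and 0.55 without and at 0.15, -0.16, 0.18, 0.04 and 0.17 with irradiation, a response of -0.17 ± 0.23. The groups overlapped in young mice and not in old, and the interaction was -2.45 ± 0.33 (adjusted p = 0.00114), and -1.87 with slide as a term.

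Il6, the cytokine interleukin-6, fell in old mice, from between -2.76 and -1.89 to between -6.12 and -2.97, where it was above background on 1 of 5 arrays, so that no exact fold is given. In young mice it stood between -4.87 and -4.08 without and between -3.61 and -3.05 with irradiation, and this difference of 1.0 did not pass (adjusted p = 0.0922). Its probe was dim, well above background on 2, 4, 5 and 1 arrays of the Young-UnIrradiated, Young-Irradiated, Old-UnIrradiated and Old-Irradiated groups. The interaction was -2.97 ± 0.57 (adjusted p = 0.0164). Olfm1, which encodes the secreted protein olfactomedin-1, had an interaction of -2.65, and of -1.07 with slide as a term. Dna2, a nuclease and helicase of replication forks, was at -2.58, and at -1.41 with slide as a term, and Stx3, a syntaxin of membrane fusion, at -2.47.

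Equal responses were rises in 91 of 103 genes and falls in 12. Zmat3, an RNA-binding target of p53 (probe at chr3:32233831-32233890, mm9), rose 2.79-fold in young and 3.34-fold in old mice. It stood at -1.58, -1.31, -1.19, -1.50 and -1.42 in Young-UnIrradiated and at 0.15, 0.31, 0.31, -0.28 and -0.10 in Young-Irradiated mice. Old mice stood at -1.59, -1.14, -1.35, -1.76 and -0.88 without and at 0.37, 0.56, 0.43, 0.03 and 0.60 with irradiation. The ages overlapped at each dose, and the interval of the interaction ran from -0.28 to 0.81.

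Inka2, an inhibitor of the kinase Pak4, met the definition of equal, but its probe was above background on no unirradiated array. It was kept only through irradiated mice and is high there by selection, so that nothing is read from its rise at either age. Pvt1, a noncoding RNA gene beside Myc, rose by 2.05 and 1.81, although its other probe had an interaction of 0.69 against -0.25. Lrp11, a low-density lipoprotein receptor related protein, met the definition too, with a dim probe. This probe was above background on no Old-UnIrradiated array and 2 Old-Irradiated arrays. It was kept only through young mice, so that no size is read from its rises. Serpinb6a, an intracellular protease inhibitor, rose by 1.59 at both ages, Qsox1, a sulfhydryl oxidase, by 1.61 and 1.58, and Adamts14, a procollagen protease, by 1.44 and 1.48. Ctsd, the lysosomal protease cathepsin D, rose by 1.63 and 1.42, and its interval ran from -0.90 to 0.48, although its other probe had an interaction of -0.89 against -0.21.

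Of 45 tested p53 targets 23 rose and 1 fell in young mice, against 15.4% and 4.91% of all genes. In old mice 18 rose and 1 fell, against 3.98% and 2.27%. In the interaction 2 were lower (Phlda3 and Pmaip1) and none higher, against 1.41% and 0.332% of all genes. The median was 0.01 with 22 of 45 estimates below 0. The definition of equal was met by 3, against 0.622% of all genes. These were Zmat3, Trp53inp1 (1.29 in young and 1.30 in old mice), which amplifies p53 signalling, and Polk (1.20 and 1.39), a translesion DNA polymerase. The mean level of the list rose from between 0.13 and 0.35 to between 1.11 and 1.24 in young mice. In old mice it rose from between 0.14 and 0.37 to between 1.13 and 1.51, so that the ages overlapped at each dose. The median was -0.20 with slide as a term and 0.11 without the arrays with liver transcripts.

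The gene of the p21 protein, Cdkn1a, which halts the cell cycle, rose 15.1-fold in young and 14.2-fold in old mice. It went from -3.43, -1.51, -2.68, -0.92 and -1.04 to 1.63, 2.59, 1.80, 2.65 and 1.32 in young mice, and from -1.54, -1.99, -1.92, -1.94 and -2.28 to 1.02, 2.13, 1.61, 1.81 and 2.87 in old mice. The interaction was -0.09 with an interval from -1.38 to 1.20, so that a difference of 2-fold in either direction was not excluded at this precision. Mdm2, which degrades p53, rose by 1.22 and 1.36 (interval of the interaction -0.83 to 1.11), Bax, which opens the mitochondrial membrane in apoptosis, by 1.87 and 1.44 (-1.03 to 0.17), and Ccng1, which encodes cyclin G1, by 2.18 and 1.97 (-1.32 to 0.89). On the dim array Mdm2 stood at 6.12 and Ccng1 at 4.17. The other Old-Irradiated arrays stood at 3.73 to 4.09 and at 1.66 to 2.59, so that the old rises of both genes rest in part on the dim array. Pmaip1, which encodes the cell death protein Noxa, rose by 1.42 in young mice and responded by 0.16 in old mice, with an interaction of -1.26 (adjusted p = 0.0402), and -0.72 with slide as a term.

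Stronger responses in old mice were sought as well. Of 629 genes called in the same direction at both ages 188 had the larger estimate in old mice, 17 of them by 1 log2 unit or more, and none passed the interaction by limma at an adjusted p under 0.05. At an unadjusted p under 0.05 in all 3 contrasts 12 genes were stronger and 347 weaker, and the fits with array weights and with slide as a random block called 46 and 33 stronger genes. Gdf15, a stress cytokine, responded by 2.71 in young and 5.09 in old mice, and its interaction of 2.38 had an interval from -0.44 to 5.20. It stood between -6.13 and -4.54 in Old-UnIrradiated mice, where Inka2 at similar levels (-5.77 to -4.77) was above background on no array. No size is therefore read from the old response of Gdf15. Its highest Old-Irradiated level, 2.35, was on the dim array. Its highest Young-UnIrradiated levels, -1.18 and -2.38, were on arrays with liver transcripts, and the remaining such array of that group stood at -4.42. Their part was not tested. Marco, a scavenger receptor of macrophages, rose by 2.92 and 5.58, with an interval from -0.31 to 5.63; it varied between -1.37 and 3.50 among Young-UnIrradiated mice, and the list of body cavity macrophage genes had its mean level between -0.60 and 2.51 in the same arrays. The part of such cells in the Marco levels was not tested.

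Lists of other blood cells had fewer called genes than the monocyte list, although the medians of neutrophil, NK cell and platelet genes were also lower in old mice. Of 35 tested mature neutrophil genes 4 were lower, against 1.41% of all genes, with a median of -1.24 that became 0.21 with slide as a term, so that the direction of the list depended on that term. Of 30 NK cell genes 1 was called, lower, and of 37 platelet and megakaryocyte genes none was, against 1.74% of all genes. Their medians likewise went from -1.0 to 0.09 and from -0.88 to 0.06. In NK cells Ncr1, the receptor NKp46, rose by 2.07 in young mice and was at 0.58 in old mice (interaction adjusted p = 0.317). In platelets Pf4, platelet factor 4, rose by 1.21 in young mice and was at 0.83 in old mice (interaction adjusted p = 0.668).

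B cell genes fell at both ages, 21 of 28 in young and 11 of 28 in old mice, against 4.91% and 2.27% of all genes. None was called in the interaction, against 1.74% of all genes (median 0.21). The median was -0.67 with slide as a term and 0.89 without the arrays with liver transcripts, so that its direction depended on the setting. The mean level of the list fell from between 2.03 and 3.25 to between 0.34 and 1.36 in young mice. It was 2.52 to 3.02 in Old-UnIrradiated mice, and in Old-Irradiated mice 0.31, 2.56, 2.36, 0.05 and 0.40. Old-Irradiated replicates 2 and 3 thus stood within or just below the range of unirradiated old mice, and the other 3 below every unirradiated mouse. Genes of MHC class II, the molecules with which B cells and dendritic cells present antigen, had 1.59, 3.69, 3.46, 1.60 and 1.37 in the same 5 mice against 3.67 to 4.07 in Old-UnIrradiated mice. Ms4a1, which encodes CD20, stood at 6.09 and 5.73 in replicates 2 and 3 and at 2.83, 2.65 and 1.87 in the others, and Cd79a, a chain of the B cell receptor, at 5.71 and 5.60 against 2.42, 2.76 and 2.27. With this spread the interval of the Ms4a1 interaction ran from -1.70 to 2.05.

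No gene of 24 tested T cell genes was called, against 1.74% of all genes, so that the count alone says nothing of T cells. Their median was 0.61, or 0.95 with slide as a term. Cd8a, a chain of the co-receptor of cytotoxic T cells, fell by 2.52 in young mice and was at -0.04 in old mice, with an interaction of 2.48 that did not pass (adjusted p = 0.0749) and passed with the replicate block (adjusted p = 0.0382). Cd3e, a chain of the T cell receptor complex, had an interaction of 1.05 (adjusted p = 0.399). None of the 29 hepatocyte genes was called, against 1.74% of all genes, and their median interaction of 5.65 was 1.33 without the 5 arrays above.

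**Figure D4:**
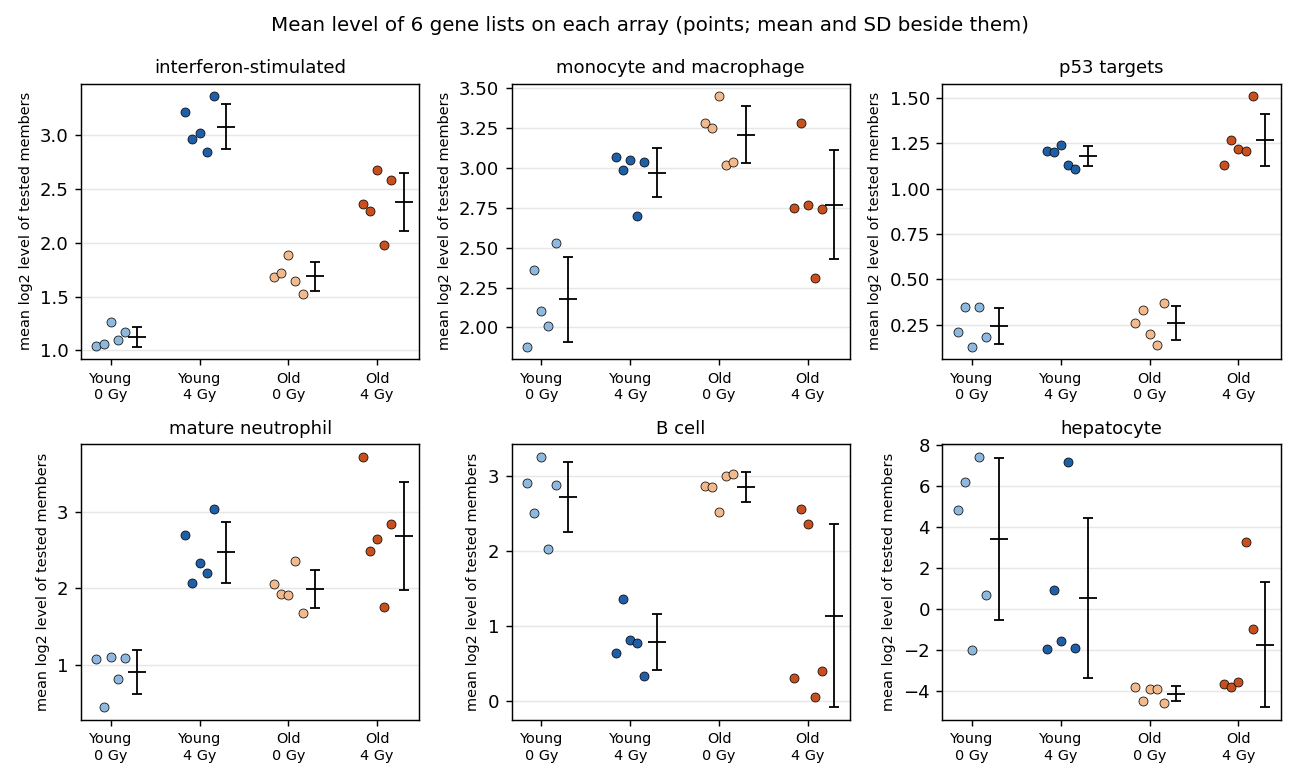
Mean level over the tested members of 6 gene lists (log2 over the P75 of the array, y axis) on each of the 20 arrays by group (points; 5 per group), with the mean and SD beside them. The mean of interferon-stimulated genes is higher at 4 Gy at both ages and lower in all irradiated old than in all irradiated young mice, monocyte genes rise in young and are lower in 4 of 5 irradiated old mice, p53 targets rise at both ages, B cell genes stay high in 2 of 5 irradiated old mice, and hepatocyte genes are above 2 on 5 arrays.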

How the data were processed

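RNA of 20 blood samples was measured on 1-colour Agilent arrays and extracted with Agilent Feature Extraction 12.0.2, per the submitters' processing notes. The deposited scanner files hold processed, mean and background signals in intensity units, with no normalization between arrays. A log2 value table of the authors was deposited too and matched 14447 probes (r 0.988 to 1.000 with log2 of the scanner signal; column medians 5.18 to 5.76); their scale and direction follow, their centring stays unknown, and they served as an alternative.

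Control and outlier spots (77 to 237 per array) were left out, spots of a probe averaged, and the log2 processed signal taken minus the array's 75th percentile. A probe was kept (21099 were) if 4 of 5 arrays in any group flagged it above background, and each gene took its brightest probe (16550 genes, 32 missing values, which limma omits). No spot was saturated. Names came from accession (28663 probes), symbol (3300), synonym (160) or the file (7306). Coordinates of probes are mm9, with exon structure not used; RefSeq promoters are GRCm38.p6, found for 65.4% of tested genes.

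One model of 4 group means was fitted with limma 3.58.1 (R 4.3.3; the data.table package, 1.17.8), and p-values were adjusted over all genes by Benjamini-Hochberg. The named genes are the 8 with the largest interaction per class (8 equal genes by the smaller response), 25 sentinel genes (24 tested), and up to 3 called members of each of 33 lists; Mpeg1, Lgals3, Fcgr4, Cd300ld, Trp53inp1, Polk and the neighbours in gene families were added after their values were seen. The members and lists were chosen with earlier results of these data known. On simulated arrays of 16550 genes the interaction test recovered 12%, 52%, 72% and 96% of changes of 1, 2, 3 and 4 log2 units. The simulated noise was independent and normal around a single mean per gene, with changes put on Old-Irradiated arrays only. It held no slide effect, dim array, liver transcripts or background floor, so that these shares do not carry over to the real arrays. The alternatives were other background corrections, scalings, filters and thresholds, slide or replicate number as a block, array weights, a trended robust variance, tissue levels as covariates, the authors' values and each array left out. The number of arrays limits the precision.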

Additional observations from a re-analysis of the deposited data

Results flagged for a closer look

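For 1 array and 20 gene levels a single array lay far from the other 4 of its group (Dixon's test). Over 276 groups tested, chance flags about 1 in 20, so that a share of such flags would arise without cause. Old-Irradiated replicate 5 had 33.33% of spots above background, and it was the high array for Dynap (-0.58), Arnt2 (-3.43), Olfr206 (-3.51), Mdm2 (6.12) and Irf7 (5.25). Young-Irradiated replicate 4 was low for Mx1 (1.79), Phlda3 (3.60) and Inka2 (-2.86), and Young-Irradiated replicate 2 high for Il6 (-3.05) and Csf1r (6.08). Among Young-UnIrradiated arrays replicate 2 was high for Ifitm6 (2.96) and Olfr206 (-1.54) and low for Acod1 (-4.76), replicate 5 high for Ppfia4 (0.55) and replicate 4 low for Dna2 (-3.78). Old-UnIrradiated replicate 4 was high for Hdc (2.85) and low for Cx3cr1 (3.72), replicate 1 high for Serpinb6a (5.11) and replicate 3 low for Cd79a (4.17). Old-Irradiated replicate 4 was low for Rtp4 (3.38).

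The interaction itself, the test that the response differs between ages, passed for these named genes, with old minus young response on the log2 scale. The values of Lilra5, Dynap, Arnt2, Olfr206, Clec4a4 and Il6 rest on groups with few or no arrays above background and are no measure of size. Dynap, Arnt2 and Olfr206 were also kept only through unirradiated young mice. Opposite genes were Ms4a6c (-3.07), Ccr2 (-2.82), Ifitm6 (-2.61), Sap30 (-2.57), Skint3 (-2.45), Clec4a3 (-2.41), Lilra5 (-2.39), Acer3 (-2.30), Lgals3 (-1.98) and Mpeg1 (-1.89). Lost genes were Dynap (5.01), Arnt2 (3.81), Olfr206 (3.64), Ms4a6d (-3.03), Clec4a4 (-2.92), Ly6f (-2.70), Fcgr1 (-2.63), Mx1 (-2.53), Ifi204 (-2.42), Ly6i (-2.40), Ifit2 (-2.33), Clec7a (-2.28), Fpr2 (-2.28), Gsr (-1.72), Tlr2 (-1.67), Cebpb (-1.66), Tyrobp (-1.63), Fcgr4 (-1.52), Anxa2 (-1.50), Ly6c1 (-1.49), Cd300ld (-1.38), Gata2 (-1.36) and Pmaip1 (-1.26). Gained genes were Il6 (-2.97), Olfm1 (-2.65), Dna2 (-2.58), Stx3 (-2.47), Ppfia4 (-2.45) and Clec4a1 (-1.98). Weaker genes were Acod1 (-2.49), Ifit3b (-2.47), Ifit3 (-2.30), Oas1a (-2.23), Oasl2 (-2.08), Ifit1 (-2.06), Rtp4 (-1.88), Oas1f (-1.76), Hdc (-1.71) and Phlda3 (-1.66). Neither response was called for Ms4a4a (-3.12).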

How the results depend on the processing

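The counts of calls moved with the processing far more than the signs did, and the cause was not tested unless stated. Counts follow as interaction, opposite, lost, gained, weaker, stronger and equal, where they moved by over 1.5 times from 288, 17, 205, 46, 12, 0 and 103. Normexp background correction gave 3, 0, 1, 2 and 0 for the first 5 and 1 equal gene. Scaling over probes above background on all arrays gave 165 interaction, 9 opposite, 116 lost, 7 weaker and 1 stronger. With no filter on dim probes, which tests more genes, the counts were 54, 9, 30, 11 and 4 with 38 equal, and with a floor on dim values 176 interaction, 120 lost and 28 gained. Probes above background on all arrays gave 25 gained, and there Acer3 turned to 0.13, its other probe. Slide as a fixed term gave 3 interaction, 3 lost and 0 opposite, gained, weaker and equal genes, with 1 slide behind each response, and slide as a random block, whose consensus correlation was negative (-0.19), 4412, 268, 2355, 906, 450, 33 and 687. Array weights gave 4278, 215, 2687, 721, 399, 46 and 732. The authors' values gave 11, 3, 7, 1 and 0 with 2 equal, and 242 of the 249 called genes they hold kept their sign. An adjusted p under 0.10 gave 636, 59, 433, 89, 44, 1 and 180, a 2-fold minimum 7 opposite and 44 equal, and an equality margin of 1.5-fold 8 equal. With hepatocyte and mesothelial levels as covariates the counts were 76, 1, 45, 11 and 4. Without the 5 arrays with liver transcripts they were 6, 1, 3, 0 and 2 with 54 equal, and without the dim array too, added after seeing the data, 41, 11, 20, 6 and 4 with 343 equal.

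Leaving out each array in turn gave 71 (without Old-UnIrradiated replicate 2) to 823 interaction genes (without Young-Irradiated replicate 4), 9 to 52 opposite, 47 to 615 lost, 11 to 106 gained, 4 to 75 weaker, 0 to 1 stronger and 41 to 330 equal genes. The interaction count also moved by over 1.5 times without Young-UnIrradiated replicates 1 (88), 2 (129) and 4 (170), Young-Irradiated replicates 1 (113), 3 (117) and 5 (102), Old-UnIrradiated replicates 1 (120) and 3 (74), and Old-Irradiated replicates 1 (673) and 4 (181). Same-numbered young arrays deviated together (r 0.143 to 0.812) and old ones did not (r -0.530 to 0.407), so that the numbers were not taken to pair the samples. Across ages, same-numbered Old-Irradiated arrays had a mean r of 0.28 with Young-Irradiated and 0.20 with Young-UnIrradiated arrays. For different numbers these were -0.07 and -0.05. Same-numbered Old-UnIrradiated arrays had -0.08 with Young-UnIrradiated and -0.03 with Young-Irradiated arrays. Whether a number marks a shared experiment is therefore not settled. With the replicate number as a block 432 interaction, 26 opposite and 25 weaker genes were called, and with the replicate block within age 420, 32 and 28 with 1 stronger. The dim array and signal near background limit what can be said of genes such as Arnt2, Il6 and Lilra5.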
